A study of Mus musculus with 2 samples.

Results

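The proteasome genes of mouse liver were described here in animals lacking apolipoprotein E, on 1 array from animals given a high fat diet with the unsaponifiable fraction of olive oil (titled orujo) and 1 array from animals given the same kind of diet with olive oil (titled olive). Animals of both groups carry the Apoe deletion and both diets were high in fat, so no array represents an intact mouse or a low-fat diet. Each label names animals without a number, and pooling of RNA, sex, age and fasting state were not stated in the labels. Members were all genes whose single platform symbol starts with Psma, Psmb, Psmc, Psmd, Psme, Psmf or Psmg, each read from its brightest probe set, which gave 48 genes from 85 probe sets among the 12393 genes named on the array. Of these, 46 encode subunits, activators, an inhibitor or assembly factors of the proteasome. The remaining 2, Psmc3ip, a factor of meiotic recombination, and Psme3ip1, a partner protein of the activator Psme3, were set apart. A probe set that the annotation assigns to both Psme2 and Psme2b was named for no gene, so Psme2 was not analysed here.

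The proteasome is the protease that degrades proteins tagged with ubiquitin. Its barrel-shaped 20S core has outer rings of alpha subunits, which gate the entry, and inner rings of beta subunits, some of which carry the proteolytic sites. The 19S regulatory particle, which caps the core to form the 26S proteasome, recognises and unfolds substrates, and its ring of ATPases threads them into the core. Interferon replaces the catalytic subunits by immunoproteasome subunits, which favour peptides for MHC class I. In hepatocytes the proteasome takes part in the turnover of apolipoprotein B and of the cholesterol synthesis enzyme HMG-CoA reductase. Transcription of its subunit genes is known to respond to the factors NRF1 (Nfe2l1) and NRF2 (Nfe2l2), which bind antioxidant response elements.

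With 1 array per diet there are no replicates, so no test of the diets was possible, no p-value is given and no ratio has an error between animals. Intensities are the deposited probe set values after scaling both arrays to a common trimmed mean, and each log2 ratio subtracts the olive oil value from the unsaponifiable fraction value. A gene is called measured where its intensity exceeded 35.6 on both arrays, the floor that stands in for detection calls. Precision is limited by the number of arrays. The only repeated measurement is of genes with several probe sets. Over 1453 genes with exactly 2 measured probe sets, their log2 ratios differed by an SD of 0.44. If both are equally noisy and read the same transcripts, 1 probe set alone has a noise of 0.31. This figure is an average over such genes and need not hold for a given gene or group. It leaves out any error that the probe sets of a gene share, such as one of the array, the RNA or the animals. All 15 hepatocyte markers with a single-symbol probe set were measured. Apoe itself had intensities of 99.7 (unsaponifiable fraction) and 103 (olive oil), and since the position of its probe set against the deletion was unknown, it checks neither label.

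Most proteasome genes had a slightly lower signal on the unsaponifiable fraction array. Of the 46 genes, 44 were measured, and 32 of these had negative ratios (72.7%), against 52.5% of all 6640 measured genes. The median log2 ratio of the 44 was −0.16, a 1.12-fold lower signal, and that of all measured genes was −0.02. With the mean over all probe sets of a gene the proteasome median was −0.093. A smaller limit than 2-fold was used for counts, 0.322 on the log2 scale, which is a signal at least 25% higher or 20% lower. By this limit 12 of the 44 genes were lower (27.3%), with 18.5% of all measured genes past it, and 4 were higher (9.09%), with 16.1% of all. The count of 4 became 1 with the mean over probe sets or a floor at the 75th percentile, and 2 with log2(value + floor). Past 2-fold, 1 gene was lower, Psme4, and 0 were higher, where 0.979% of all measured genes were lower, 1.36% higher and 2.33% past it either way. The ratios of all but Psme4 and Psmf1 lay within 2 SDs of single-probe-set noise (0.63 on the log2 scale), a limit that 9.19% of all measured genes exceeded. Psma8, a testis form of an alpha subunit, had intensities of 11.2 and 7.49 and the chaperone gene Psmd10 had 29.5 and 21.7 on the unsaponifiable fraction and olive oil arrays, all under the floor, so neither has a ratio.

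**Figure D1:**
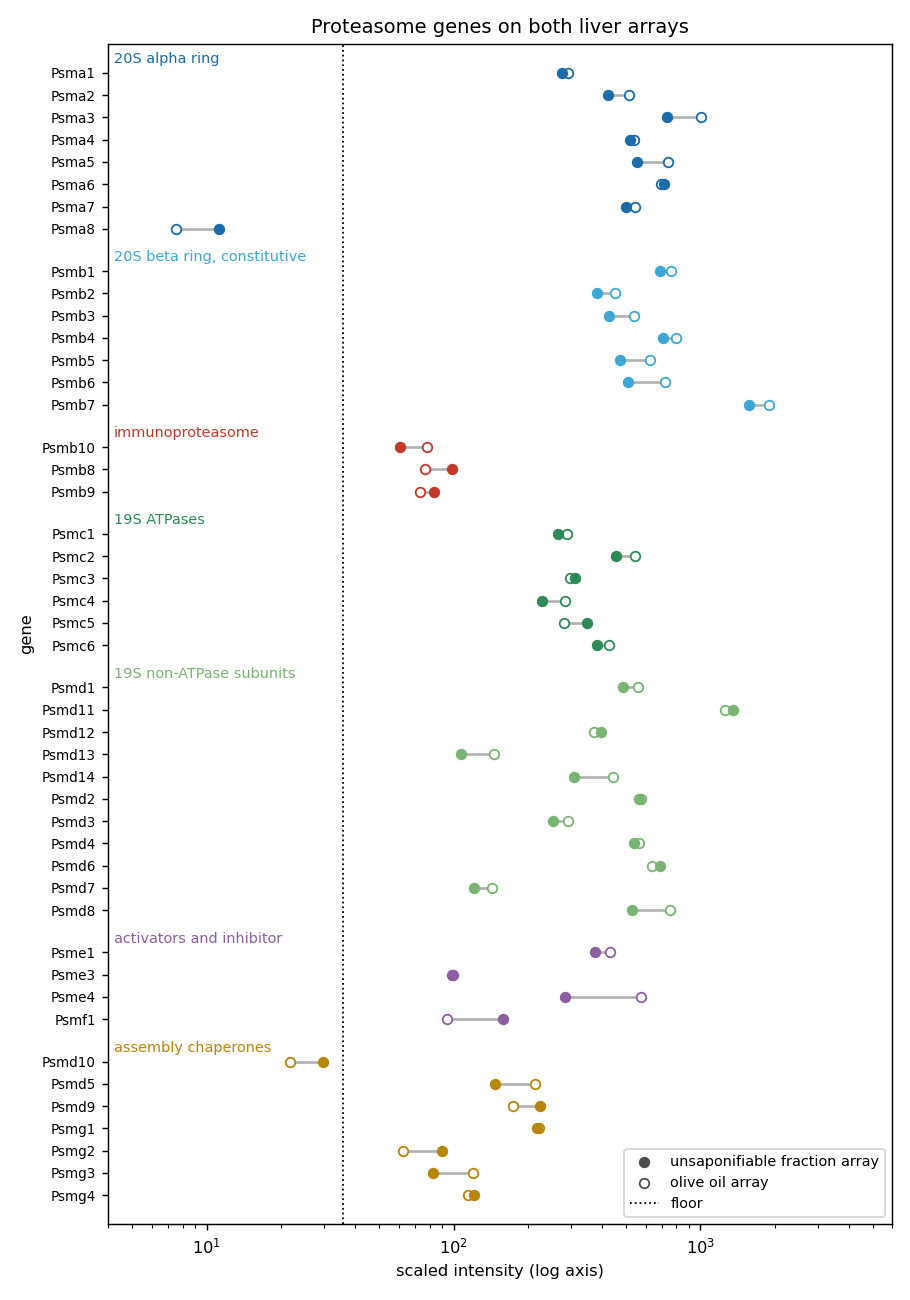
Scaled intensity (log axis) of 46 proteasome genes on the unsaponifiable fraction array (filled) and the olive oil array (open), grouped by subcomplex, with the floor of 35.6 as a dotted line. Most filled points lie left of their open partners, by less than 2-fold except for Psme4, and Psma8 and Psmd10 lie under the floor on both arrays; distances between genes are not comparable, since probe sets differ in brightness.

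Other differences between the arrays stood beside this shift. Transcripts of the exocrine pancreas were lower on the unsaponifiable fraction array, with a summed intensity of 1071 over 13 marker genes against 6783 on the olive oil array, and the 12 measured markers had a median of −2.60 on the log2 scale. None of the 13 was listed at 0 on either array, and 12 and 13 of them were above the floor. Among them Ctrb1, Cpa1 and Cela2a had the lowest ratios at −3.71, −3.50 and −3.06, and Cela1, Reg1 and Rnase1 the highest at −1.58, −1.98 and −2.05. For 18S ribosomal RNA, the control probe sets of the 5′, middle and 3′ parts had log2 ratios of 2.54, 2.48 and 0.34. Among messenger RNAs, the 5′ and 3′ controls were at 0.15 and 0.12 for Gapdh and at −0.02 and −0.27 for beta-actin. Those of pyruvate carboxylase were higher, at 0.76 and 0.52, and those of the transferrin receptor were under the floor on both arrays. The part of these differences in the proteasome values was not tested. In bulk tissue, fewer cells of a type and less RNA per cell cannot be told apart.

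Catalytic subunits of the constitutive core and their immunoproteasome counterparts are compared as pairs, and for this the promoters of the constitutive genes Psmb5 and Psmb6 and of their immunoproteasome counterparts Psmb8 and Psmb9 are shown. They are the 250 bases before the RefSeq start of each gene in assembly GRCm38.p6, read 5′ to 3′ on the gene's strand, with capitals marking matches to the antioxidant response element core TGACNNNGC on either strand.
Psmb5, chr14:54617996-54618245, minus strand: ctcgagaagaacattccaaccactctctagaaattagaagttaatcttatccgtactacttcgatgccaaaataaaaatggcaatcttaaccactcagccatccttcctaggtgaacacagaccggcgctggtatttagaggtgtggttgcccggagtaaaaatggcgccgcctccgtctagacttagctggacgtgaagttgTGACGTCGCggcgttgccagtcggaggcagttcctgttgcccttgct
Psmb8, chr17:34197945-34198194, plus strand: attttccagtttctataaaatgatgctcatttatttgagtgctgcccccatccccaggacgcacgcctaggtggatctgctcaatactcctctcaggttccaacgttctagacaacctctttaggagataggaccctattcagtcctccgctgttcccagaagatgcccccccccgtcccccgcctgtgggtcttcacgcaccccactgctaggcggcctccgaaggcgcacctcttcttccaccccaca
Psmb6, chr11:70525107-70525356, plus strand: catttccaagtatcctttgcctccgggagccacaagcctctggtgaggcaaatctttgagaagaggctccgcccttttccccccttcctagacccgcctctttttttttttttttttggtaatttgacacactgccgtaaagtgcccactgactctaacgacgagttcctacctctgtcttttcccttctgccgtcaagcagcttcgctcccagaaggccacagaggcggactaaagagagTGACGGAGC
Psmb9, chr17:34187331-34187580, minus strand: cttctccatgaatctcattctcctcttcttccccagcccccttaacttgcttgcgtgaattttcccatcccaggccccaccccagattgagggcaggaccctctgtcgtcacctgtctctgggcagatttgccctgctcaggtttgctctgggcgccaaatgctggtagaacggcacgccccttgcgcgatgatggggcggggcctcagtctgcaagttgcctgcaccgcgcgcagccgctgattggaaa
The match in Psmb5 begins 47 bases before the start and that in Psmb6 begins 9 bases before it, and no match lies in these windows of Psmb8 and Psmb9. Over the family, 38 of the 46 genes had a promoter in the RefSeq table, and 5 of them held this core (13.2%), namely Psmb5, Psmb6, Psmc6, Psmd12 and Psmd9. Of all 27025 genes in the table, 11.5% held it, and of the measured genes with a promoter 13.6%, so the share in the family is near the background. The CCAAT box (CCAAT, either strand) was found in 13 of the 38 genes (34.2%), in 37.5% of all genes and in 40.5% of measured genes. The GC box GGGCGG was found in 21 (55.3%) and in 35.4% of all genes, but in 63.8% of measured genes. The interferon response element core GAAANNGAAA was found in Psmb3, Psmd4 and Psmd9, 7.89% of the 38 genes. It was found in 3.46% of all genes and 3.22% of measured genes. The family share rests on these 3 genes, none of them an immunoproteasome gene. Psmd9 held both the antioxidant and the interferon core, which did not overlap. These matches describe letters and not bound sites.

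The catalytic beta subunits of the constitutive core were lower on the unsaponifiable fraction array, while the immunoproteasome subunits differed from one another in direction. Psmb5, the chymotrypsin-like subunit, had an intensity of 471 with the unsaponifiable fraction and 624 with olive oil, a log2 ratio of −0.41. Psmb6, the caspase-like subunit, had 510.0 and 716, a log2 ratio of −0.49 and the lowest of the constitutive beta ring. Psmb7, the trypsin-like subunit, had 1571 and 1899, a log2 ratio of −0.27. All 3 were thus lower on the same array, by 1.33-fold, 1.40-fold and 1.21-fold. Psmb8, which takes the place of Psmb5 after interferon, had 98.2 with the unsaponifiable fraction and 76.5 with olive oil, a log2 ratio of 0.36. Psmb9, which takes the place of Psmb6, had 83.2 and 73.3, a log2 ratio of 0.18. Psmb10, which takes the place of Psmb7, had 61.0 and 78.2, a log2 ratio of −0.36. The immunoproteasome ratio minus its constitutive counterpart was 0.77 for the Psmb8 and Psmb5 pair, 0.67 for Psmb9 and Psmb6, and −0.09 for Psmb10 and Psmb7. The larger differences are under 2 times the SD of 0.44 seen between probe sets of 1 gene. Each of these genes rests on 1 probe set. The immunoproteasome probe sets were above the floor by a smaller margin than the constitutive ones, and none of the 3 was measured when the floor was raised to the 75th percentile.

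The other beta subunits, which have no proteolytic site of their own, were lower too. Psmb3 had an intensity of 426 with the unsaponifiable fraction and 540.5 with olive oil, a log2 ratio of −0.34, and its second probe set gave −0.53. Psmb2 had 380.2 and 452, a log2 ratio of −0.25. The remaining pair lay closer to 0, with both probe sets of each gene negative. Psmb4 had 708 and 796, a log2 ratio of −0.17, with −0.12 in its second probe set. Psmb1 had 684 and 762, a log2 ratio of −0.16, with −0.05 in its second probe set. By the 0.322 limit 3 of the 7 constitutive beta subunits were lower (42.9%), with 18.5% of all measured genes past it. All 7 had negative ratios, with a median of −0.27 and a range from −0.49 to −0.16. The SD of their log2 ratios was 0.12, under the average noise of 0.31 for a single probe set.

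The alpha ring had a median of −0.11 over 7 measured genes, of which 6 had negative ratios, and a median of −0.20 without probe sets of shared sequence. Psma3 was the lowest, with an intensity of 730.4 with the unsaponifiable fraction and 1006 with olive oil, a log2 ratio of −0.46. Psma5 had 553 and 737, a log2 ratio of −0.41, but its second measured probe set gave 0.01. Psma2 had 423 and 516, a log2 ratio of −0.29. The remaining alpha genes were closer together on both arrays. Psma7, with 501 and 541, was at −0.11, and its second probe set gave −0.09. Psma1, with 275 and 291, was at −0.08. Psma4, with 518 and 539, was at −0.06. Psma6 was the only alpha gene with a positive ratio, 0.05 from intensities of 715 and 692, read from a probe set whose suffix marks shared sequence, and its other measured probe set gave −0.20. Over the alpha and constitutive beta genes together, 13 of 14 ratios were negative, with a median of −0.26. By the 0.322 limit 5 were lower (35.7%) and 0 higher, against 18.5% and 16.1% of all measured genes.

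**Figure D2:**
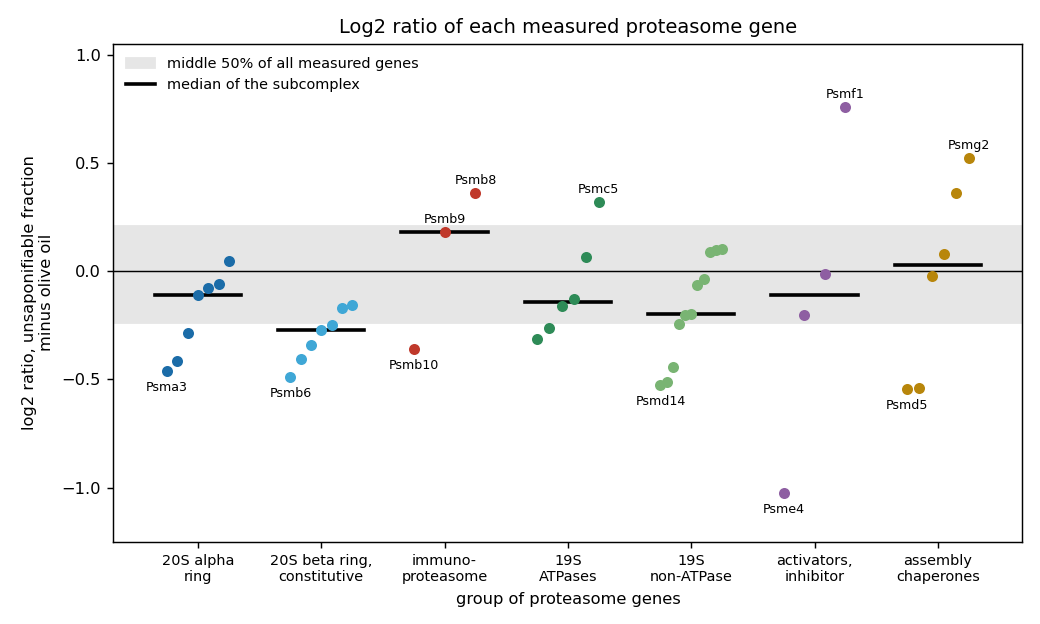
Log2 ratio (unsaponifiable fraction minus olive oil) of the 44 measured proteasome genes as points, by group, with the median of each group as a bar and the middle 50% of all measured genes as a grey band. All 7 constitutive beta subunits lie below 0, with a median of −0.27, while Psmb8 and Psmb9 lie above 0 and Psmf1 and Psme4 mark the extremes at 0.76 and −1.03.

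The ATPases of the 19S particle, which unfold substrates, showed ratios of both signs. Psmc4 was lowest, with an intensity of 229 with the unsaponifiable fraction and 284 with olive oil, a log2 ratio of −0.31. Psmc2 had 453 and 544, a log2 ratio of −0.26, but 0.01 in its second measured probe set, one of shared sequence. Psmc6 had 380.4 and 425, a log2 ratio of −0.16, with −0.23 in its second measured probe set. Among the ATPases with negative ratios, Psmc1 was nearest to 0, at −0.13 from 264 and 289. The others went the other way. Psmc3, with 311 and 297, was at 0.07, and Psmc5, with 348 and 279, was at 0.319, the highest of the 19S subunits. Of these 6 genes 0 passed the 0.322 limit in either direction, against 18.5% of all measured genes lower and 16.1% higher. The median over the 6 was −0.14, with 4 negative ratios. The median was −0.021 with the mean over probe sets and −0.061 with the dimmest measured probe set.

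Among the 11 non-ATPase subunits of the 19S particle, 3 were lower (27.3%) and 0 higher by the 0.322 limit. Of all measured genes 18.5% were lower and 16.1% higher by it. Of the 11, 8 had negative ratios and the median was −0.20. With the mean over probe sets the median was −0.085. Psmd14, the deubiquitinase that removes ubiquitin chains from substrates as they enter, had an intensity of 306 with the unsaponifiable fraction and 441 with olive oil, a log2 ratio of −0.53 and the lowest of the 26S subunits. Psmd8, a subunit of the lid, had 528 and 754, a log2 ratio of −0.51. Psmd13, also of the lid, had 108 and 146, a log2 ratio of −0.44, with −0.19 in its second probe set. These 3 stood below the other subunits of the particle. Psmd7, the partner of Psmd14 in the lid, had 121 and 144, a log2 ratio of −0.24. The base scaffold gene Psmd1 had 484 and 557 (−0.20), and the lid gene Psmd3 had 253 and 289.9 (−0.20). The other base scaffold gene, Psmd2, had 562 and 577, a log2 ratio of −0.04. Psmd4, a receptor for ubiquitin chains, had 539 and 563, a log2 ratio of −0.06, with −0.13 in its second measured probe set. The lid genes Psmd6, Psmd12 and Psmd11 had positive ratios close to 0. Psmd6 had 684 and 637, a log2 ratio of 0.10, and its second probe set gave 0.45. Psmd12 had 394 and 371, a log2 ratio of 0.09. Psmd11 had 1351 and 1264, a log2 ratio of 0.10, from a probe set of shared sequence, whereas its other 3 measured probe sets lay between −0.21 and −0.12.

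Taking the constitutive 20S and 19S subunits as 1 particle, 25 of 31 ratios were negative and the median was −0.20. The SD over the 31 genes was 0.21, below the 0.31 of single-probe-set noise and below the 0.42 over all measured genes. Of the 31, 0 exceeded 2 SDs of single-probe-set noise, where 9.19% of all measured genes did. Since 0.31 is larger than the whole spread of these 31 genes, that limit may be too wide for them. The 17 subunits of the 19S particle had a median of −0.16 and the 14 constitutive 20S subunits a median of −0.26. The ranges overlapped, from −0.53 to 0.32 in the 19S particle and from −0.49 to 0.05 in the core, and whether the subcomplexes differ was not tested.

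**Figure D3:**
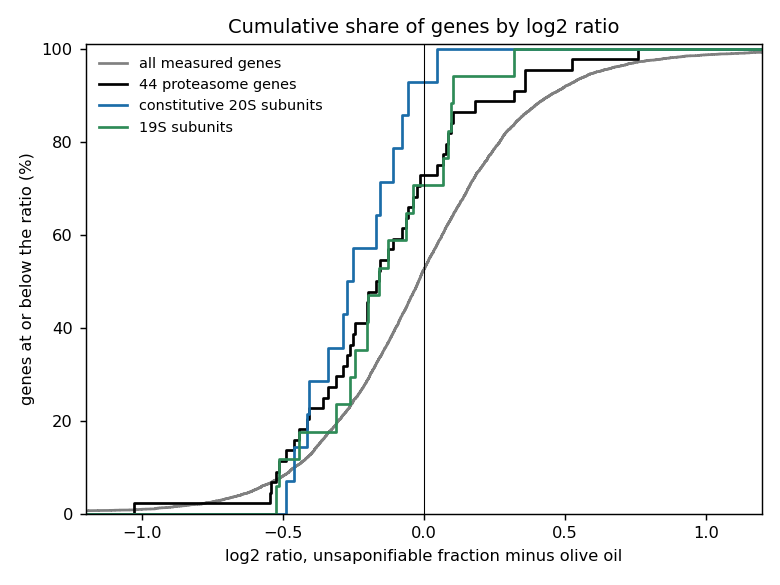
Cumulative share of genes (%) by log2 ratio (unsaponifiable fraction minus olive oil) for all 6640 measured genes, the 44 proteasome genes, the 14 constitutive 20S subunits and the 17 subunits of the 19S particle. At a ratio of 0 the curves stand at 72.7% for the 44 genes, 92.9% for the 20S and 70.6% for the 19S subunits, against 52.5% of all genes. The 20S and 19S curves start at their lowest ratios, −0.49 and −0.53, and are at 0 below these by construction. The lowest step of the curve of the 44 genes is Psme4 at −1.03.

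The activators and the inhibitor held the extremes in both directions. Psme4, which encodes the activator PA200 of the 20S core, had an intensity of 282 with the unsaponifiable fraction and 576 with olive oil, a 2.04-fold lower signal and a log2 ratio of −1.03. This value came from a probe set of shared sequence, and the other measured probe sets of Psme4 gave −0.28 and 0.02. The probe set of 0.02 read 360.1 and 355, and that of −0.28 read 195 and 237. Without probe sets of shared sequence Psme4 was at 0.02, so its 2-fold difference rests on 1 probe set. Psmf1, which encodes the proteasome inhibitor PI31, had 159 with the unsaponifiable fraction and 93.7 with olive oil, a 1.69-fold higher signal and a log2 ratio of 0.76. Its other probe sets were below the floor on at least 1 array, and the brightest of them read 33.9 and 44.8, the opposite direction. Psme1, a subunit of the interferon-inducible activator PA28, had 375 and 431, a log2 ratio of −0.20. Psme3, which forms the nuclear form of that activator, had 98.6 and 99.6, a log2 ratio of −0.01, with −0.15 in its second measured probe set. Its partner gene Psme3ip1, outside the groups, had 114 and 108, a log2 ratio of 0.08, and Psmc3ip read 4.40 and 8.09, under the floor on both arrays.

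The assembly chaperones, which build the rings and the base and are absent from the finished particle, were spread to both sides, with 3 negative and 3 positive ratios and a median of 0.03. Psmg3 of the alpha-ring chaperones had an intensity of 82.8 with the unsaponifiable fraction and 120.5 with olive oil, a log2 ratio of −0.54. Its partner Psmg4 had 121 and 114, a log2 ratio of 0.08. Psmg2 had 89.9 and 62.5, a log2 ratio of 0.52, but −0.02 in its second probe set. Its partner Psmg1 had 218 and 222, a log2 ratio of −0.02. Psmd5, a chaperone of the 19S base, had 147 and 214, a log2 ratio of −0.54. Psmd9, another base chaperone, had 224 and 175, a log2 ratio of 0.36, with 0.15 in its second probe set.

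Repeated probe sets gave a measure of how far the sign of such small ratios can be read. Of 16 proteasome genes with more than 1 measured probe set, the brightest and the next brightest had the same sign in 10 (62.5%), against 60.6% of 2057 such genes on the whole array. The median absolute difference between these probe sets was 0.23 in the proteasome genes and 0.26 in all. The next brightest probe sets, read on the same 2 arrays, had negative ratios in 11 of the 16 genes, with a median of −0.11. Over all such genes on the array, the next brightest had a median of 0.00 and 1033 of 2057 were negative. These probe sets are not an independent sample of either diet. Over all 63 measured probe sets of proteasome genes, 46 had negative ratios and the median was −0.13.

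**Figure D4:**
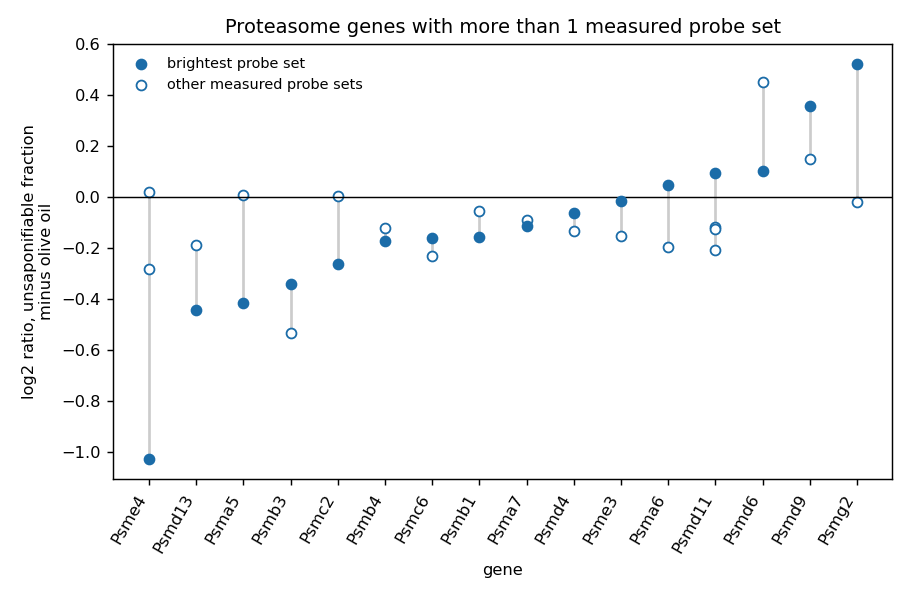
Log2 ratio (unsaponifiable fraction minus olive oil) of every measured probe set for the 16 proteasome genes that have more than 1, ordered by the brightest probe set (filled), with the other probe sets open. Psme4 shows the widest spread, from −1.03 to 0.02, and Psmg2, Psma5, Psmc2, Psma6 and Psmd11 have probe sets on both sides of 0.

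Genes that work with the proteasome had ratios on both sides of 0. Of 36 partner genes listed, 26 had a single-symbol probe set and all 26 were measured, with 14 negative ratios and a median of 0.00. By the 0.322 limit 4 were lower (15.4%) and 3 higher (11.5%), against 18.5% and 16.1% of all measured genes. Nfe2l2, which encodes the regulator NRF2, was the lowest, with an intensity of 208 with the unsaponifiable fraction and 371 with olive oil, a log2 ratio of −0.84. Nfe2l1, which encodes the regulator NRF1, went the other way, with 274 and 219.9 and a log2 ratio of 0.318, just inside that limit. Ufd1, which with Vcp and Nploc4 extracts ubiquitin-tagged proteins, was at −0.47 with 0.26 in its second probe set. Nploc4 was at 0.37 and Vcp, chosen after its value was seen, at 0.00. The second probe set of Ufd1 lay on the same side of 0 as Nploc4, and whether the members of this complex differ was not tested. Pomp, the maturation factor of the 20S core, had 456 and 589.5, a log2 ratio of −0.37, within the range of the beta subunits it helps to assemble. The deubiquitinases of the 19S particle, Usp14 and Uchl5, were at 0.03 and −0.03, and Usp14's other probe sets at −0.29 and −0.24. Ube2d3, a ubiquitin-conjugating enzyme, was highest at 0.78, but its other 5 probe sets lay between −0.29 and 0.38, and Ube2r2, another such enzyme, was at 0.34. Adrm1, a ubiquitin receptor of the particle, was not analysed here.

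Class I antigen processing and interferon genes, set beside the immunoproteasome, had a median of 0.18 on the log2 scale over the 17 measured of 21. Of these, 9 ratios were positive and 8 negative. By the 0.322 limit 3 were higher (17.6%) and 1 lower (5.88%), against 16.1% and 18.5% of all measured genes. The median of 0.18 fell furthest under 4 of the 10 alternatives. It was 0.013 with quantile normalization and 0.048 with the mean over probe sets. With the dimmest measured probe set it was 0.040, and without probe sets of shared sequence 0.053. Over all 10 it lay between 0.013 and 0.21. The class I chains H2-D1 and H2-K1 were at 0.41 and 0.39, and their other probe sets lay between 0.31 and 0.77. Tap1, a chain of the peptide transporter, had an intensity of 97.5 with the unsaponifiable fraction and 85.3 with olive oil, a log2 ratio of 0.19. B2m, the class I light chain, had 4279 and 3688, a log2 ratio of 0.21, with 0.15 in its second probe set. Tap2, the other chain of the transporter, exceeded the floor with olive oil alone (44.7, against 35.6). The interferon-induced genes went both ways, with Oas1a highest at 0.54 and Ifit1 lowest at −0.62. The chaperones Pdia3 and Calr, which help to load class I molecules, were at −0.31 and −0.29. Leukocyte markers, whose cells carry immunoproteasomes, had summed intensities of 4457 and 4338 over 24 genes on the unsaponifiable fraction and olive oil arrays, with 17 and 15 genes above the floor and 0 listed at 0. The 15 measured markers had a median of −0.11, from Ptprc, Lcp1 and Cd68 at −0.99, −0.65 and −0.35 to Laptm5, Cd5l and Marco at 0.54, 0.41 and 0.35. The 15 hepatocyte markers had a median of 0.18, from Apob, Tat and Ttr at −0.26, −0.13 and −0.09 to Arg1, Fgb and Fgg at 0.49, 0.41 and 0.37.

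**Figure D5:**
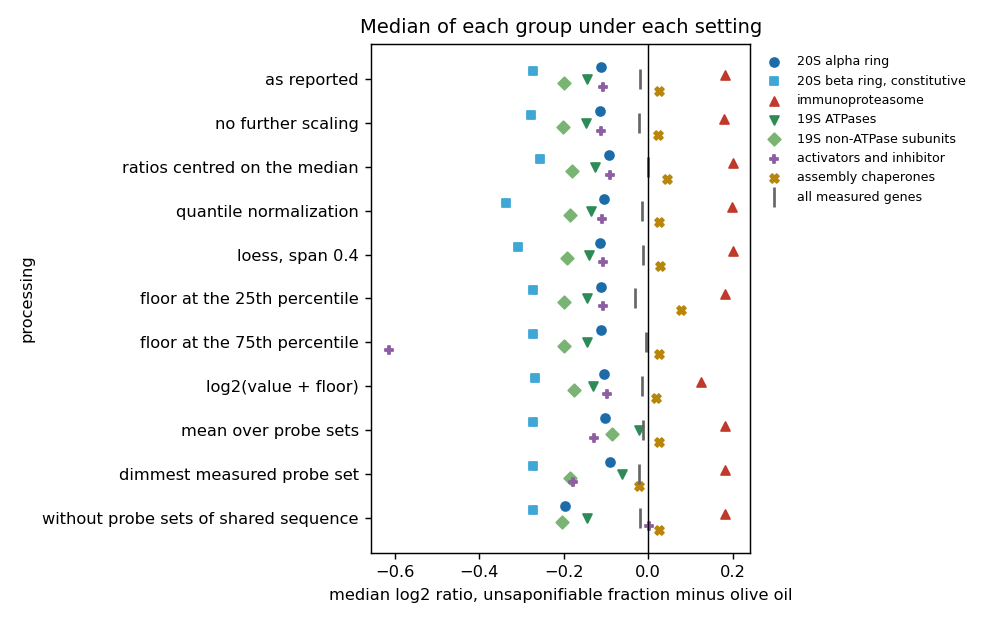
Median log2 ratio (unsaponifiable fraction minus olive oil) of each group of proteasome genes under the reported processing and 10 alternatives, with the median of all measured genes as a grey tick. The constitutive beta ring stays between −0.34 and −0.25 in all of them, the immunoproteasome is absent where the floor lies at the 75th percentile, and the activators and inhibitor reach −0.61 with that floor.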

How the data were processed

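Liver RNA of mice lacking apolipoprotein E was profiled on 2 Affymetrix arrays, 1 per diet, from about 8 µg of total RNA per the labels. The deposited table holds linear intensities per probe set, summarised by the authors with software that the labels do not name. Both arrays had a 2% trimmed mean of 100.05 as deposited, so ratios are relative to a common average.

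Without the 64 control probe sets, the arrays were rescaled to equal 2% trimmed means over 22626 probe sets (factors 1.001 and 0.999). A floor at the 50th percentile of the pooled values (35.6) replaced anything lower before the log2 step. The platform annotation gave 1 gene symbol to 20380 probe sets, several to 691 and none to 1555, and 20351 Entrez identifiers matched RefSeq genes of GRCm38.p6. Each gene was read from its brightest probe set by mean log2 value. Groups were described by counts and medians beside all measured genes. All genes found by the prefix rule were named, and of the other lists the 3 highest and 3 lowest ratios and a few fixed genes. The members and lists were chosen with earlier results of these data known. Alternatives covered scaling, centring, quantile normalization, loess (span 0.4), the floor, log2(value + floor) and the choice of probe set. The calculation was tested on simulated data with planted changes of at least 2-fold in brighter genes. That test does not cover dim genes or shifts as small as most of those described here. Python 3.11.15 with numpy 2.4.6, pandas 2.3.3, scipy 1.17.1 and statsmodels 0.14.6 was used.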

Additional observations from a re-analysis of the deposited data

How the results depend on the processing

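Of 139 values recomputed under 10 alternatives for 14 results, 121 were counted as unchanged. A median had to keep its sign and move less than single-probe-set noise over the root of the number of genes. A count had to change by at most 1.5 times. The ATPase median counted as unchanged at −0.021 in place of −0.14. Several alternatives could barely move a value, so the tally does not measure robustness. The scaling factors were 1.001 and 0.999, and 23 of the 44 measured genes have 1 probe set, which the choice of probe set leaves as it is. The median of all proteasome genes stayed negative, between −0.20 and −0.093, and the count of negative ratios between 29 and 33. The value of −0.093, and −0.085 for the non-ATPase subunits, came with the mean over probe sets, which includes probe sets under the floor. With that mean, the count past the 0.322 limit upwards was 1 in place of 4, and the class I and interferon median was 0.048 in place of 0.18. That count was also 1 where the floor lay at the 75th percentile and 2 with log2(value + floor). The class I and interferon median was 0.013 under quantile normalization, 0.040 with the dimmest measured probe set and 0.053 without probe sets of shared sequence. The activators and inhibitor had a median of −0.61 under that higher floor, where 2 genes were left, and 0.0028 without probe sets of shared sequence, where Psme4 was read from another probe set. The count past 2-fold was 0 with log2(value + floor), the mean, the dimmest probe set or without shared sequence. Medians near 0 changed sign: the assembly chaperones to −0.022 with the dimmest probe set, and the partner genes to 0.015 with ratios centred on the median and to 1.7e-05 under the higher floor. The cause of the other changes was not tested. No paired analysis was possible because each diet had 1 array.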
